A study of Mus musculus with 8 samples.

Results

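The cytosolic ribosomal protein genes were examined in brown adipose tissue (BAT) of mice with cancer-associated cachexia. They were taken from the gene names of the deposited count table as all names that start with Rpl or Rps followed by a number, with the endings a, x, y, l, p or a further digit, together with Rpsa, Rplp0, Rplp1 and Rplp2. The S6 kinase genes and genes whose names mark them as pseudogene copies (-ps) were left out. The rule found 90 of the 56953 genes of the table. In the GENCODE M21 annotation of GRCm38, matched by Ensembl ID without version, 84 of them are protein coding, 52 of the large and 32 of the small ribosomal subunit, and 6 are annotated as processed pseudogenes (Rps4l, Rps12l1, Rpl32l, Rpl6l, Rps3a2 and Rps3a3). Of the protein-coding genes, 77 encode the usual form of a ribosomal protein and 7 encode a paralog of one.

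The BAT came from WT C57BL/6J mice, male or female, which were 8 to 10 weeks old at injection. CAC mice (n = 4) received 3000000 LLC cells, a mouse Lewis lung carcinoma line, under the skin of the right flank, and CTR mice (n = 4) received PBS alone. Mice were monitored for 21 days, and LLC-injected mice without a tumour were left out by the study. Each library is 1 sample of its group, and whole BAT RNA was used, so that fewer cells of a type and less RNA per cell cannot be told apart. The labels name no further detail of the animals behind the libraries. The p-values set the difference between the groups against the spread between samples of a group, and cover only these 8 samples.

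Each cytosolic ribosome carries one copy of nearly every ribosomal protein, and cells adjust their production together with that of ribosomal RNA. Many of their mRNAs begin with a C and a run of pyrimidines, the 5′ terminal oligopyrimidine (TOP) tract, through which mTORC1 and LARP1 control their translation. Ribosomal protein genes have given rise to large numbers of processed pseudogenes, which are copies of the mRNA inserted elsewhere in the genome, and several carry small nucleolar RNAs (snoRNAs) in their introns. In brown adipocytes, as in other cells, protein synthesis depends on this supply.

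The annotated starts of these genes were searched for such a tract. In windows of 30 bases around the RefSeq start of transcription (GRCm38.p6), 15 before it and 15 from it onward, the strand of the gene was searched for a C that lies within 5 bases of the start and is followed by at least 4 further C or T bases. Among the 65 members with a window, 30 (46.2%) held such a tract, compared with 5718 (21.2%) of the 27025 genes of the RefSeq table. A match is a description of the letters and not a measured start, and absence means only that these letters are not in this window. The first 4 windows are shown as examples with a tract, in capitals from that C to the end of the run or of the window, and the last as an example without one.
Rpl7a, chr2:26910792-26910821, plus strand: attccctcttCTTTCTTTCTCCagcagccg
Rpl27a, chr7:109519180-109519209, plus strand: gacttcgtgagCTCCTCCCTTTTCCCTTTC
Rplp2, chr7:141447636-141447665, plus strand: tgcgtcagcgtCTTCCTTTCgccgccggac
Rps27, chr3:90213634-90213663, minus strand: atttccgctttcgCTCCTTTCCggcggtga
Rps15, chr10:80292416-80292445, plus strand: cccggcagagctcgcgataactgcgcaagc

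Total counts were 2454493 to 4827956 per library in CTR and 1823167 to 3392538 in CAC. Markers of the labelled tissue were present: Ucp1, the uncoupling protein of brown fat, was at 3804 to 4210 CPM in CTR and 3590 to 4932 CPM in CAC, and all 12 brown adipocyte markers were measured. CPM are counts scaled to a common library size, with the effective library size of the TMM method. Of the markers of other cells, the neutrophil sums and the monocyte and macrophage sums did not overlap between the groups, whereas the sums of every other list did. The 11 neutrophil markers summed to 12.0 to 15.2 CPM in CTR and 174 to 444 CPM in CAC, the 7 erythroid markers to 6180 to 19269 and 14637 to 44327 CPM, and the 12 skeletal muscle markers to 1471 to 3585 and 3202 to 5737 CPM. The 11 monocyte and macrophage markers summed to 215 to 241 CPM in CTR and 295 to 414 CPM in CAC. Endothelial markers (8 genes) summed to 1225 to 1257 and 978 to 1465 CPM, fibroblast and progenitor markers (9 genes) to 500 to 684 and 424 to 643 CPM, and the 12 lymphocyte markers to 11.2 to 14.8 and 7.44 to 15.5 CPM, with Cd3g at 0 in every library. The part of these cells in the values of the ribosomal protein genes was not tested, except that the values of Rpl3l are set beside the muscle markers.

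The first question was whether the mRNAs of the ribosome as a whole differed between CAC and CTR BAT. Together the 90 genes held 1.77% ± 0.10 of the counts in CTR (SD, n = 4, range 1.64% to 1.88%) and 1.82% ± 0.06 in CAC (range 1.75% to 1.87%). The ranges overlapped, and the difference of 0.054 percentage points was smaller than the SD of the CTR libraries. It was 0.012 percentage points without CTR 4 and 0.090 without CTR 2, 0.029 as a share of the counts without mitochondrially encoded genes, and 0.086 with the named copies added. Large subunit genes held 0.87% to 1.00% of the counts in CTR and 0.93% to 1.01% in CAC, and small subunit genes 0.77% to 0.87% and 0.82% to 0.88%. The ratio of large to small subunit counts was 1.14 ± 0.02 in CTR and 1.16 ± 0.04 in CAC. The balance between the subunits therefore differed by no more than its spread between libraries.

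Of the 90 genes, 87 passed edgeR's low-count filter and were tested. None of the 87 differed at an adjusted p under 0.05 by edgeR's quasi-likelihood test, compared with 92 of the 9876 genes tested (0.932%), and DESeq2 also called 0, compared with 1.17% of all genes. At an unadjusted p under 0.05, 7 members were higher and 4 were lower in CAC, together 12.6% of the members, beside 12.9% of all genes tested (7.01% higher and 5.93% lower). DESeq2 gave 5 members higher and 1 lower, where 5.51% of all genes tested were higher and 3.66% lower. Among genes with a mean of at least 100 CPM the share was 9.84% of the members (6 of 61) and 22.0% of all 986 genes. The members' share was thus close to that of all genes tested. Among genes with a mean of at least 100 CPM the members' share was the lower one, a difference that was not tested.

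The log2 fold change (CAC against CTR) of the members had a median of 0.03, compared with 0.00 over all genes tested. It was above 0 for 46 members and below 0 for 41, that is 52.9% above 0, where 50.0% of all genes tested were. The quartiles of the members were -0.08 and 0.13, and those of all genes -0.17 and 0.17. In 95.4% of the members the change was under 0.3 in either direction, compared with 73.8% of all genes; among genes of at least 100 CPM it was 96.7% of the members and 85.2% of all. The 95% interval lay within a 1.5-fold change in both directions for 80 of 87 members (92.0%), beside 47.4% of all genes and 86.8% of the 986 genes with a mean of at least 100 CPM. A change larger than 1.5-fold in the counts placed on the gene was thus outside the interval of these 80 members, of which 77 are annotated as protein coding. The other 7 were Rpl7a, Rpl3l, Rpl27a, Rps20, Rpl39l, Rpl22l1 and the processed copy Rpl6l, some of them named here after their values were seen.

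**Figure D1:**
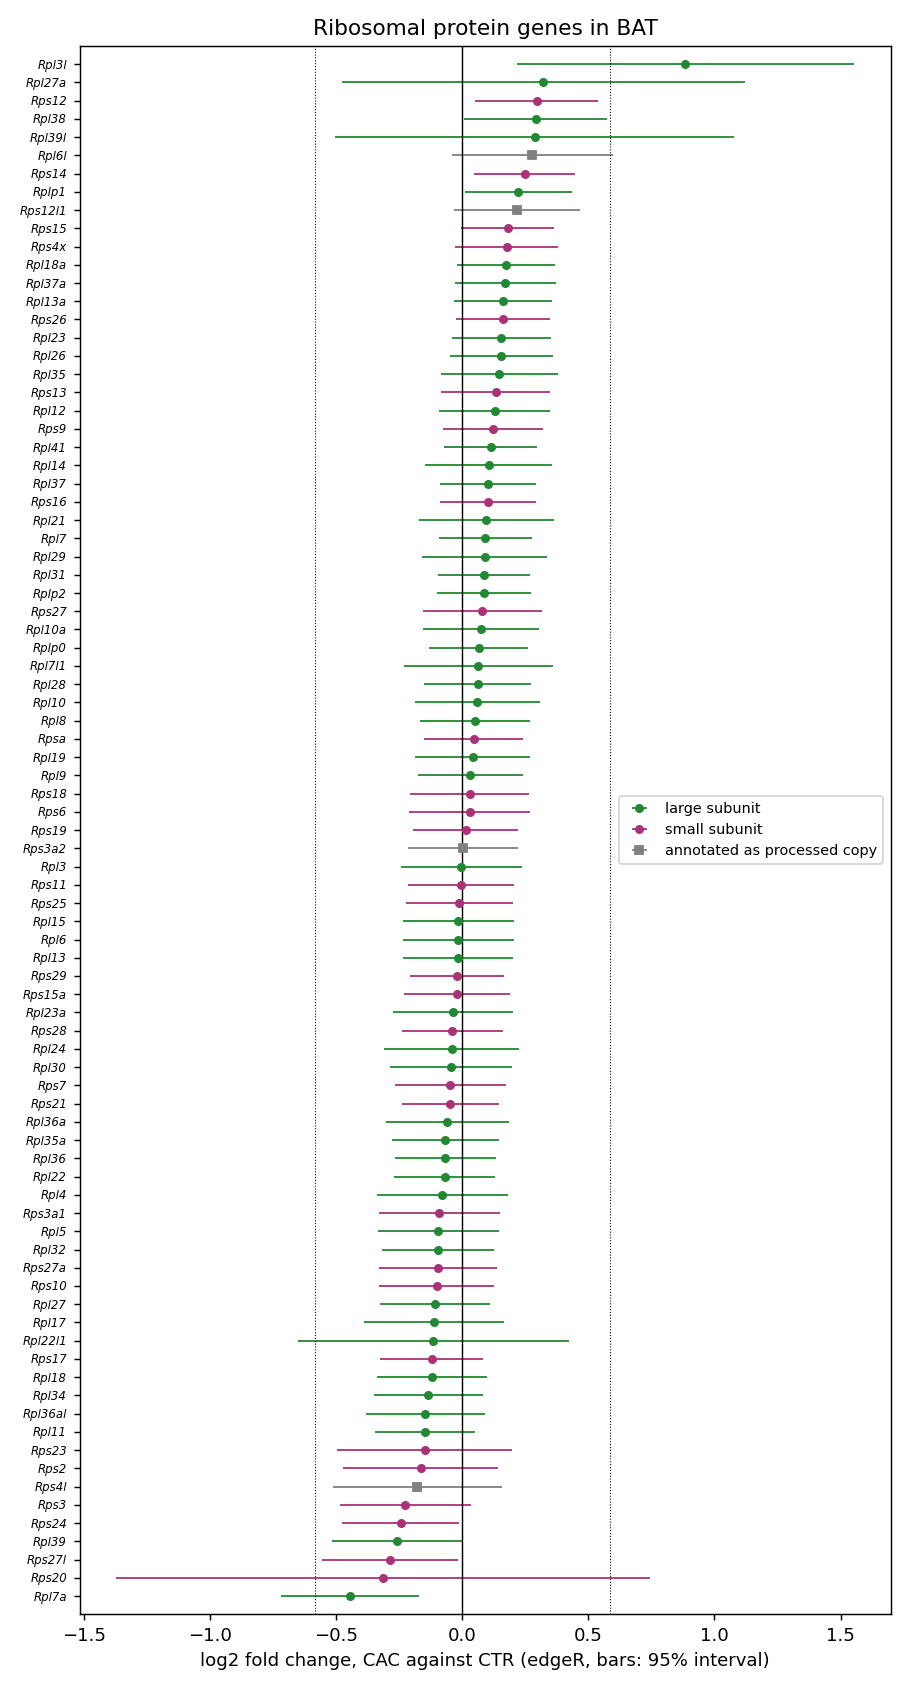
The log2 fold change of 85 of the 87 tested ribosomal protein genes (points; vertical axis, gene) with its 95% interval from edgeR (bars), coloured by subunit, with genes annotated as processed copies in grey and dotted lines at a 1.5-fold change. Most points lie close to 0, Rpl3l is the highest at 0.88 and Rpl7a the lowest at -0.45, and the interval of Rps20 is the widest.

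By subunit, the 51 tested protein-coding genes of the large subunit had a median log2 fold change of 0.05, with 28 above 0 and 23 below. The 32 of the small subunit had a median of -0.01, with 15 above 0 and 17 below. At an unadjusted p under 0.05 there were 5 members of the large subunit (3 higher, 2 lower) and 6 of the small subunit (4 higher, 2 lower), that is 9.80% and 18.8% of those tested, beside the 12.9% of all genes tested. The 77 usual forms spanned -0.45 to 0.32, the 6 tested paralogs -0.29 to 0.88 and the 4 tested processed copies -0.18 to 0.28.

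Among the large subunit genes, Rpl7a had the smallest p of all members. Rpl7a (ENSMUSG00000062647.17, chr2:26910764-26913318, plus strand) encodes a core protein of the large subunit and carries 3 snoRNA genes inside its span. Its level was 56.9, 56.2, 58.9 and 50.3 CPM in CTR replicates 1 to 4, and 34.6, 33.0, 48.6 and 43.9 CPM in the CAC replicates. All 4 CAC libraries lay below all 4 CTR libraries, with the 2 lowest values in CAC 1 and CAC 2, which are the shallowest libraries. Mean CPM were 55.6 ± 3.71 for CTR and 40.0 ± 7.50 for CAC (SD, 4 libraries each). The log2 fold change was -0.45 (SE 0.13, 95% interval -0.72 to -0.17, edgeR adjusted p = 0.11). It did not pass the threshold, but it was called when no filter was used (log2 fold change -0.47, edgeR adjusted p = 0.041). Of the 75-base stretches of Rpl7a transcripts, 77.4% occur in other genes, so that its reads can be split.

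Rpl7a was the only member whose groups did not overlap with CAC below, where 3.4% of all genes tested had this pattern. With CAC above, the groups did not overlap for 6 members (3.64% of all genes tested; 7.04% in either direction). Among them were Rps14, Rps15 and Rps26 of the small subunit and the processed copies Rps12l1 and Rpl6l, of which Rps15, Rps26, Rps12l1 and Rpl6l are named after their values were seen. No large subunit gene other than the copy Rpl6l was among them.

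Rps14 (ENSMUSG00000024608.12, chr18:60747098-60778546, plus strand), a small subunit protein whose reduced dosage is known to impair red cell formation, had the most counts of all members. It was at 1220, 1198, 1322 and 1208 CPM in CTR and 1737, 1442, 1345 and 1348 CPM in CAC. CAC 1 stood highest, and CAC 3 and CAC 4 lay just above CTR 3. The log2 fold change was 0.25 (SE 0.10, edgeR adjusted p = 0.26), and it ranged from 0.16 to 0.29 with a library left out. The span of Rps14 overlaps that of Ndst1 in the annotation, whose reads could not be told apart from it where the strand setting is unknown.

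Rps12, a small subunit protein, was at 60.5, 64.2, 69.7 and 60.6 CPM in CTR and 68.7, 80.8, 71.8 and 90.6 CPM in CAC (log2 fold change 0.30, edgeR adjusted p = 0.28). CAC 1 lay below CTR 3. Its value rests on few of the reads that match it, since 24 named copies of Rps12 hold most of them.

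Rps24, a small subunit protein needed for processing of the ribosomal RNA precursor, was at 313, 316, 273 and 285 CPM in CTR and 211, 219, 299 and 272 CPM in CAC. CAC 1 and CAC 2 were the lowest, and CAC 3 lay among the CTR values (log2 fold change -0.24, SE 0.11, edgeR adjusted p = 0.36). Rpl39, the small basic protein of the exit tunnel, was at 69.7 to 81.3 CPM in CTR, and at 53.5, 55.8, 71.8 and 73.6 CPM in CAC replicates 1 to 4. Here too CAC 1 and CAC 2 were the lowest (log2 fold change -0.26, edgeR adjusted p = 0.38).

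The libraries differed in how often they were at the extreme of a member. CAC 2, the shallowest library, was the lowest of the 8 for 29 of 87 members, CTR 4 for 16, CAC 1 for 14 and CAC 3 for 0. CAC 3 was the highest for 19 members, CAC 1 for 15, CTR 2 for 14 and CTR 4 for 3. Set against the CTR mean of each gene, the median log2 level of the members was -0.08 in CAC 2 and 0.09 in CAC 3, with the other CAC libraries at 0.04 and 0.05 and the CTR libraries between -0.06 and 0.03. By this median, CAC 2 and CAC 3 marked the ends of the range, and the CTR libraries lay between them. The share of counts on the members gave other ends, with CTR 4 the lowest library (1.64%) and CTR 2 the highest (1.88%). The order of the libraries thus depended on the measure, and the part of depth in it was not tested.

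**Figure D2:**
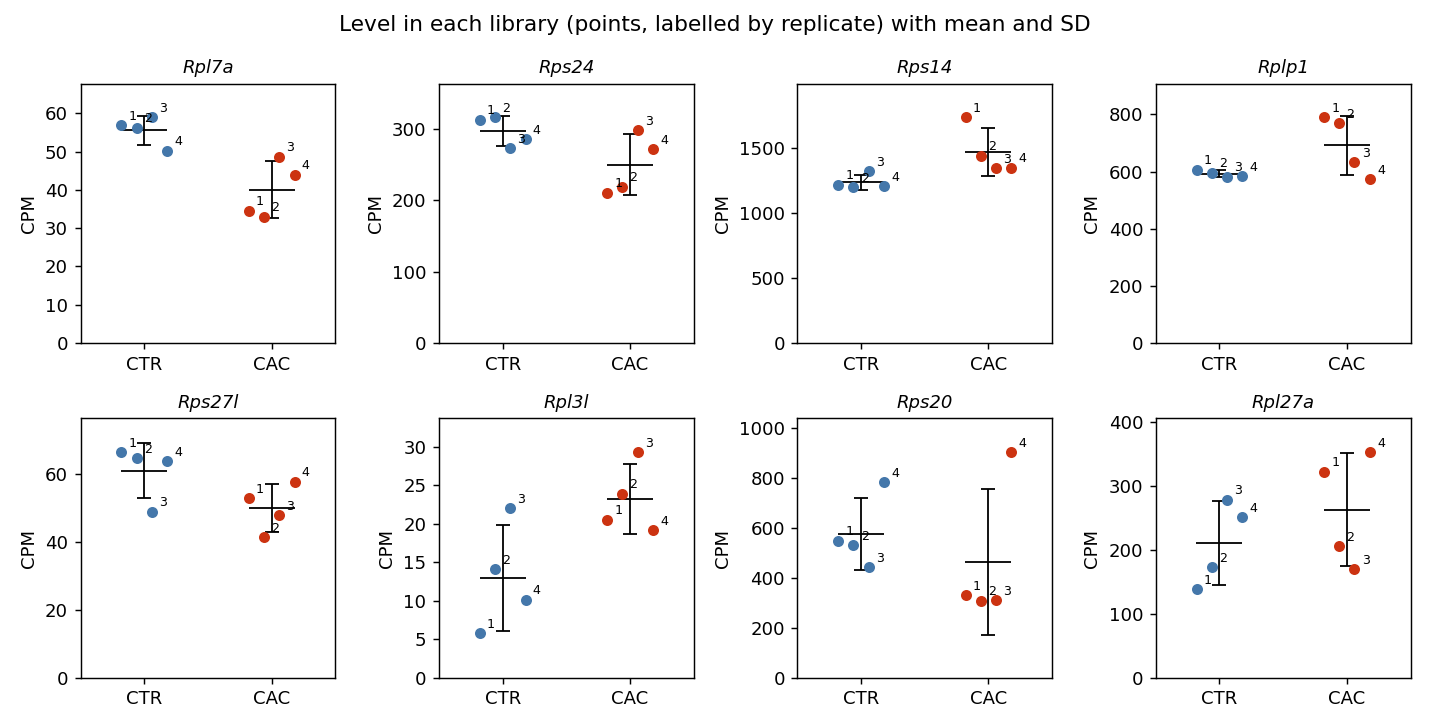
Level in CPM (vertical axes, from 0) of 8 ribosomal protein genes in each CTR (blue) and CAC (red) library, numbered by replicate, with the group mean and SD (black). Rpl7a and Rps14 show no overlap between groups, Rplp1 is spread in CAC from 574 to 789 CPM, and a single CAC library, replicate 4, stands at 904 CPM for Rps20.

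The stalk of the large subunit, which binds the elongation factors, is formed by Rplp0, Rplp1 and Rplp2. Rplp1 was at 607, 596, 581 and 583 CPM in CTR and 789, 769, 634 and 574 CPM in CAC. CAC 1 and CAC 2 were the highest, and CAC 4 was below every CTR library (log2 fold change 0.22, SE 0.10, edgeR adjusted p = 0.36). Rplp2 was at 777 to 926 CPM in CTR and 863 to 948 CPM in CAC (log2 fold change 0.09, edgeR adjusted p = 0.75), and Rplp0 at 174 to 204 and 192 to 210 CPM (log2 fold change 0.06, adjusted p = 0.84). With a library left out, these changes ranged from 0.045 to 0.13 (Rplp2) and from 0.023 to 0.094 (Rplp0). The 3 stalk genes thus overlapped between the groups.

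Rps6, the small subunit protein that S6 kinases phosphorylate below mTORC1, was at 42.7 to 50.0 CPM in CTR and 42.0 to 48.6 CPM in CAC (log2 fold change 0.03, 95% interval -0.21 to 0.27, edgeR adjusted p = 0.95). Rpsa, which is also known as the laminin receptor, was at 205 to 231 CPM in CTR and 206 to 240 CPM in CAC (log2 fold change 0.05, 95% interval -0.15 to 0.24, edgeR adjusted p = 0.89). For both, a 1.5-fold change lay outside the interval. Rpl5 and Rpl11, which bind the p53 regulator MDM2 when ribosome assembly is disturbed and were chosen after their values were seen, stood at -0.10 and -0.15 on the log2 scale (edgeR adjusted p = 0.79 for Rpl5 and 0.55 for Rpl11).

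The 5 members with the most counts were Rps14, Rplp2, Rpl41, Rps29 and Rplp1. Rpl41, the shortest ribosomal protein, was at 630 to 700 CPM in CTR and 672 to 779 CPM in CAC (log2 fold change 0.11, edgeR adjusted p = 0.64). Rps29, a zinc-binding protein of the small subunit, was at 596 to 702 CPM in CTR and 613 to 671 CPM in CAC (log2 fold change -0.02, edgeR adjusted p = 0.96). Rpl38, known for its part in the translation of Hox mRNAs, was at 135 to 156 CPM in CTR and 148, 228, 190 and 135 CPM in CAC replicates 1 to 4. CAC 2 and CAC 3 were above all CTR libraries and CAC 4 was below them (log2 fold change 0.29, SE 0.13, edgeR adjusted p = 0.36). The share of Rpl38 counts on its 2 named copies was lowest in the same libraries, at 15.6% in CAC 2 and 27.7% in CAC 3, beside 36.1% to 43.2% in CTR, 44.1% in CAC 1 and 45.7% in CAC 4. With the copies added to Rpl38 its log2 fold change was 0.12, and without CAC 2 it was 0.14.

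Most members varied little between libraries of one group. The SD of log2 CPM within groups had a median of 0.12 over the members and 0.26 over all genes tested; among genes with a mean of at least 100 CPM the medians were 0.11 for 61 members and 0.15 for all 986 genes. Rpl7, at 255 to 278 CPM in CTR and 277 to 287 CPM in CAC, had the smallest SD, and 99.8% of genes of at least 100 CPM had a larger one. The SD was over 0.3 in 6 members, namely Rps20, Rpl3l, Rpl39l, Rpl27a, Rpl22l1 and Rps23, of which Rps23 is named after its values were seen.

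Rps20 (ENSMUSG00000028234.7, chr4:3831334-3835665, minus strand), a small subunit protein that carries a snoRNA gene inside its span, had the largest spread. It was at 549, 532, 443 and 783 CPM in CTR, and at 330, 308, 311 and 904 CPM in CAC. Of the CAC libraries, 3 lay below every CTR library, and CAC 4 lay above all. These values rest on 580 to 3551 counts per library; the exact Poisson 95% interval, which covers counting error only, was 869 to 939 CPM in CAC 4 and 284 to 335 CPM in CAC 2. Only 2.03% of genes with a mean of at least 100 CPM had a larger SD. With all libraries the log2 fold change was -0.31 (SE 0.44, 95% interval -1.37 to 0.74, edgeR adjusted p = 0.84), and without CAC 4 it was -0.86 (edgeR adjusted p = 0.025), so that the call depends on this library. The value moved with others as well: it was -0.12 without CTR 4, -0.18 without CAC 1 and -0.16 without either CAC 2 or CAC 3.

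Rpl27a (ENSMUSG00000046364.15, chr7:109519147-109522367, plus strand), whose start window with its tract is printed above, varied in both groups. It was at 138, 173, 278 and 251 CPM in CTR and at 322, 206, 170 and 352 CPM in CAC. Both groups held low values, and the highest 2 libraries were CAC 4 and CAC 1. Its log2 fold change of 0.32 had an SE of 0.33 (edgeR adjusted p = 0.76), and it was 0.15 without CAC 4, 0.17 without CTR 1 and 0.48 without CAC 3. The counting intervals of the lowest and highest library were 124 to 152 CPM (CTR 1) and 331 to 375 CPM (CAC 4). CAC 4 was the highest library for both Rps20 and Rpl27a, while the order of the remaining libraries differed between the genes.

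**Figure D3:**
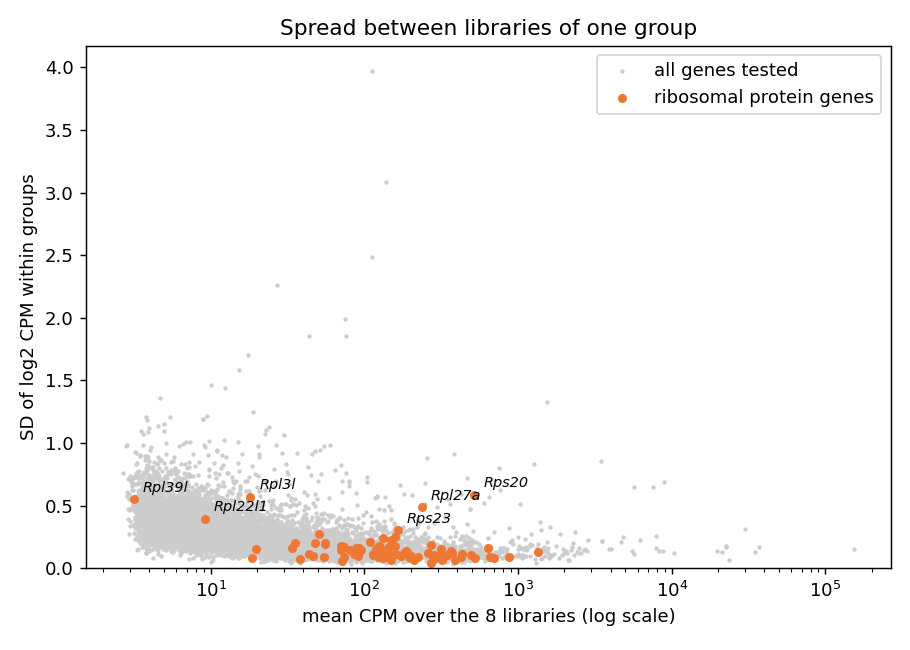
SD of log2 CPM within groups (vertical axis) against the mean CPM of the 8 libraries (horizontal axis, log scale) for all 9876 genes tested (grey) and the 87 ribosomal protein genes (orange), with the 6 members over 0.3 named. Rps20 and Rpl27a lie above the other members of their level, while most members lie in the lower part of the cloud.

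The paralogs were compared with their parent genes within each library, since such a ratio does not depend on library scaling. Rpl3l is the form of Rpl3 used by heart and skeletal muscle, Rps27l is a known p53 target, Rpl22l1 can replace Rpl22, and Rpl10l and Rpl39l are known from male germ cells. The coding sequences were 57.3% (Rpl7 and Rpl7l1) to 87.9% (Rpl36a and Rpl36al) identical over their aligned bases. The last 60 coding bases (stop codon included) of the pair whose ratio lay lowest in p among protein-coding pairs, and of the most alike pair, are printed with the differing bases in capitals, to show how far reads can be told apart.
Rps27, chr3:90212522-90213651, minus strand: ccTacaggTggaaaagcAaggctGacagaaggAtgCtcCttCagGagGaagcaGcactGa
Rps27l, chr9:66946086-66949516, plus strand: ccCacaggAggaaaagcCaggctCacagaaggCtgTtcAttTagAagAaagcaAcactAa
Rpl36a, chrX:134585654-134588062, plus strand: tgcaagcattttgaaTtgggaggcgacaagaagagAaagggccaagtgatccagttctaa
Rpl36al, chr12:69182731-69184083, minus strand: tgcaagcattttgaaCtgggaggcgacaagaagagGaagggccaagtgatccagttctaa
The first pair differs at 12 of these 60 bases and the second at 2 (coordinates are those of the genes in GRCm38, GENCODE M21).

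Of 8 pairs, 7 had a mean of at least 5 counts per library for both genes and were tested by an exact two-sided permutation test over the 70 assignments of the libraries, for which 0.0286 is the smallest p. A single pair at that p has an adjusted p of 0.20 over the 7 pairs (Benjamini-Hochberg), so that no pair could pass by itself in this design, and the adjusted values say nothing of whether the ratios differed. Rpl10l had 0 counts in all 8 libraries, while Rpl10 was at 73.2 to 102 CPM in CTR and 81.4 to 96.8 CPM in CAC.

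Rpl3l (ENSMUSG00000002500.16, chr17:24727820-24736143, plus strand) had the largest log2 fold change of all members. It was at 5.76, 14.1, 22.0 and 10.1 CPM in CTR and at 20.5, 23.9, 29.3 and 19.2 CPM in CAC, on 16 to 100 counts per library. CAC 2 and CAC 3 lay above all CTR libraries, and CAC 1 and CAC 4 lay below CTR 3. The log2 fold change was 0.88 (SE 0.30, 95% interval 0.22 to 1.55, edgeR adjusted p = 0.24). Without CTR 3 it was 1.19 (edgeR adjusted p = 0.014). With each library left out it ranged from 0.66 to 1.19, and the edgeR adjusted p from 0.014 to 0.41. With all libraries, Rpl3l was also called when no filter was used (edgeR adjusted p = 0.0011). The same held with the replicate number as a block (edgeR adjusted p = 0.033). The call therefore depends on these settings. The skeletal muscle markers ran alongside: all 12 had a log2 fold change above 0, with a median of 0.96. Their sum was 1588, 2823, 3585 and 1471 CPM in CTR replicates 1 to 4 and 3202, 4423, 5737 and 5196 CPM in the CAC replicates. CTR 3 and CAC 3 were the highest of their group in both, whereas CAC 4 had the next highest muscle sum and the lowest Rpl3l of CAC, and CTR 4 had the lowest muscle sum with Rpl3l above CTR 1. Their part in the level of Rpl3l was not tested. The parent Rpl3 was at 116 to 141 CPM in CTR and 98.9 to 139 CPM in CAC (log2 fold change 0.00, edgeR adjusted p = 1.00), and the log2 ratio of Rpl3l to Rpl3 averaged -3.40 ± 0.76 for CTR and -2.41 ± 0.37 for CAC (SD, n = 4, exact permutation p = 0.086, adjusted p = 0.20).

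Rps27l (ENSMUSG00000036781.14) was at 66.6, 64.7, 49.0 and 63.9 CPM in CTR and 53.0, 41.5, 48.1 and 57.9 CPM in CAC. CTR 3 lay within the CAC range and the other CTR libraries lay above it (log2 fold change -0.29, SE 0.13, edgeR adjusted p = 0.35). Rps27 was at 120 to 127 CPM in CTR and 103 to 152 CPM in CAC (log2 fold change 0.08, edgeR adjusted p = 0.84). The log2 fold change of Rps27 ranged from 0.0033 to 0.17 with a library left out. The log2 ratio of Rps27l to Rps27 averaged -1.03 ± 0.19 for CTR and -1.37 ± 0.08 for CAC, a difference of -0.34 (SD, n = 4, exact permutation p = 0.057, adjusted p = 0.20), and CTR 3 was the one CTR library inside the CAC range. The denominator is uncertain, since 98.5% of the 75-base stretches of Rps27 transcripts occur in other genes.

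The ratio of Rps4l to Rps4x was -2.84, -3.11, -3.22 and -3.23 in CTR and -3.57, -3.44, -3.36 and -3.49 in CAC on the log2 scale. All CAC ratios lay below all CTR ratios, a difference of -0.37 that reached the smallest p the design allows (exact permutation p = 0.0286, adjusted p = 0.20, n = 4 per group). Rps4l, which the annotation lists as a transcribed processed pseudogene overlapping Tmtc1, was at 18.9 to 25.2 CPM in CTR and at no more than 21.1 CPM in CAC (log2 fold change -0.18, edgeR adjusted p = 0.70). Its log2 fold change ranged from -0.26 to -0.091 with a library left out. Rps4x, the X-linked parent, was at 165 to 195 CPM in CTR and 187 to 219 CPM in CAC (log2 fold change 0.18, edgeR adjusted p = 0.47). This denominator is uncertain as well, since 52.9% of the 75-base stretches of Rps4x transcripts occur in other genes. The named copy of Rps4x took 35.6% to 39.6% of the counts of gene and copy in CTR and 38.1% to 42.1% in CAC.

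The other pairs overlapped between the groups. Rpl39l was at 1.24 to 3.97 CPM in CTR and 1.62 to 4.88 CPM in CAC on 3 to 18 counts per library, and its log2 ratio to Rpl39 differed by 0.61 (exact permutation p = 0.23), or by 0.29 without CTR 3. The ratio of Rpl22l1 to Rpl22 differed by -0.15 (exact permutation p = 0.60), with Rpl22l1 at 7.06 to 12.4 CPM in CTR and 5.41 to 12.6 CPM in CAC. Rpl36al to Rpl36a differed by -0.07 (exact permutation p = 0.54) and Rpl7l1 to Rpl7 by 0.00 (exact permutation p = 0.97).

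**Figure D4:**
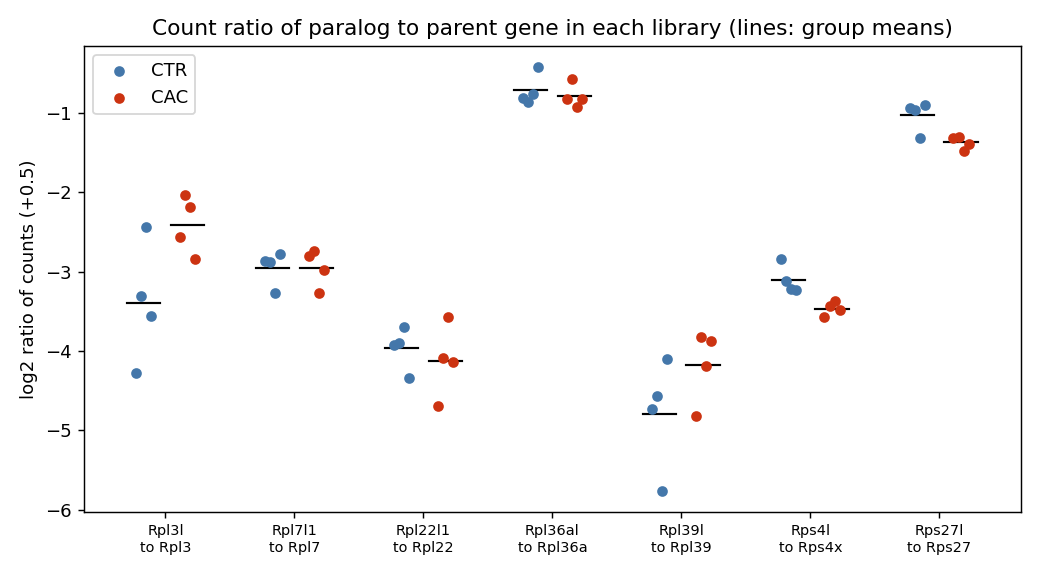
Log2 ratio of the counts (plus 0.5) of each paralog to its parent gene (vertical axis) in each CTR (blue) and CAC (red) library for the 7 pairs tested, with lines at the group means. Only for Rps4l to Rps4x do all CAC points lie below all CTR points, and Rpl3l to Rpl3 is spread most in CTR, from -4.28 to -2.44.

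The counting of these genes was shared with their copies. The authors counted multi-mapping reads, and 83 of the 90 members held a value that is not a whole number in at least 1 library, 29 of them in all 8. Among nonzero values of the members, 70.1% to 79.5% per library were not whole, beside 25.1% to 28.4% of all nonzero values. The share of 75-base stretches that a member's transcripts have in common with another gene had a median of 48.2%. It was 71.1% for the 29 members that were never whole and 0.316% for the 7 that were always whole.

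The table lists 321 genes named as -ps copies of a member, for 64 of the 90 members. They held 0.427% to 0.467% of the counts in CTR and 0.465% to 0.494% in CAC, that is 25.3 ± 1.30 counts per 100 counts on members in CTR and 26.3 ± 1.03 in CAC (SD, n = 4). The groups overlapped. Genes named as copies held more counts than the member for 13 members. They took 84.9% to 89.3% of the counts of Rps12 and its 24 copies, 70.6% to 73.9% of those of Rpl15, 64.2% to 67.9% of those of Rps6 and 61.5% to 67.9% of those of Rpl10. The level of such a member therefore leaves out the counts placed on its copies.

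The copy with the most counts was Rps16-ps2, at 242 to 272 CPM in CTR and 256 to 290 CPM in CAC when scaled to the total of all counts. Its 441 bases are 100.0% identical to the coding sequence of Rps16, and the last 60 bases of both are printed, with no capitals because none differ.
Rps16, chr7:28350652-28353155, plus strand: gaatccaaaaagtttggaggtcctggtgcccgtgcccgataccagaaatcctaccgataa
Rps16-ps2, chr5:129128077-129128517, minus strand: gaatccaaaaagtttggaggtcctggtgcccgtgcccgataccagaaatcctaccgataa
A 75-base read from inside this sequence matches both places equally well. Rps16 itself was at 194 to 211 CPM in CTR and 202 to 228 CPM in CAC, and the copies took 52.2% to 57.9% of the counts of the gene and its copies. When the counts of all named copies were added to their members before the fit, 50 members had a log2 fold change above 0, their median was 0.05, and again 0 were called.

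**Figure D5:**
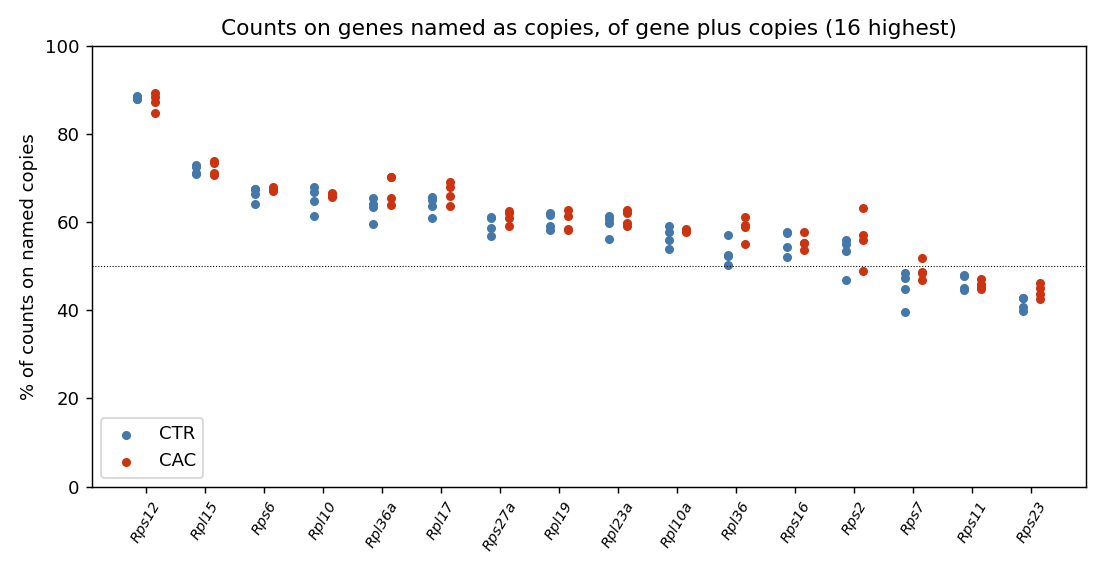
Percent of the counts of a gene and its named copies that lie on the copies (vertical axis, 0 to 100%), per CTR (blue) and CAC (red) library, for the 16 members with the highest mean share. For Rps12 the share is 84.9% or more in every library, and the dotted line marks 50%.

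Of the 3 members that did not pass the filter, Rpl10l had no counts, Rps3a3 was at 0.27 to 0.44 CPM in 3 CTR libraries and at 0 in the others, and Rpl32l was at 0.53 to 1.07 CPM in 4 libraries and at 0 in the others. For the remaining processed copies the log2 fold changes were 0.22 (Rps12l1), 0.28 (Rpl6l) and 0.00 (Rps3a2), each with an edgeR adjusted p of at least 0.47. Inside the spans of 30 members the annotation places snoRNA genes.

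Genes that act with the ribosome were then examined. Fau encodes a ribosomal protein fused to a ubiquitin-like protein and was at 158 to 184 CPM in CTR and 167 to 196 CPM in CAC (log2 fold change 0.08, edgeR adjusted p = 0.80). Its log2 fold change ranged from 0.028 to 0.12 with a library left out. None of the tested genes of the 6 lists given next had an adjusted p under 0.05. Those with an unadjusted p under 0.05 were 2 of 9 elongation factors, 4 of 44 initiation factors, 8 of 91 ribosome assembly factors, 1 of 12 of RNA polymerase I and its factors, 1 of 13 snoRNA host genes and 1 of 28 mTORC1 and TOP regulators. The background share is the 12.9% of all genes tested. The median log2 fold changes of these lists lay between -0.10 (RNA polymerase I) and 0.04 (ribosome assembly factors).

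Among the elongation factors, Eef1d, a subunit of the exchange factor for Eef1a1, was at 73.4, 99.1, 89.6 and 70.3 CPM in CTR and 109, 123, 114 and 100.4 CPM in CAC. Every CAC library lay above the CTR libraries (log2 fold change 0.43, edgeR adjusted p = 0.10). Eef1a1, which delivers aminoacyl-tRNA, was at 146, 156, 125 and 133 CPM in CTR and 86.5, 98.4, 124 and 120 CPM in CAC. The CAC libraries lay below, CAC 3 only just (log2 fold change -0.38, edgeR adjusted p = 0.15). Eef1b2 was at 133 to 147 CPM in CTR and 144 to 170 CPM in CAC (log2 fold change 0.18, adjusted p = 0.48).

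Of the initiation factors, the poly(A)-binding protein gene Pabpc1 had a log2 fold change of -0.35 (99.7 to 125 CPM in CTR, 70.2 to 106 CPM in CAC, edgeR adjusted p = 0.23). Eif2b2, a subunit of the eIF2 exchange factor, had one of 0.40 and Eif3e, a subunit of eIF3, one of -0.36 (edgeR adjusted p = 0.26 and 0.31). Among the assembly factors, Nop10, part of the pseudouridylation particle, was at 66.8 to 131 CPM in CTR and 60.6 to 79.1 CPM in CAC (log2 fold change -0.60, edgeR adjusted p = 0.10). Without CTR 3, the lowest CTR library, its log2 fold change was -0.76 (edgeR adjusted p = 0.0024). With each library left out it ranged from -0.76 to -0.48, and the edgeR adjusted p from 0.0024 to 0.26. Npm1, the nucleolar chaperone nucleophosmin, was at 40.3 to 53.3 CPM in CTR and 54.1 to 73.2 CPM in CAC, with no overlap (log2 fold change 0.43, edgeR adjusted p = 0.11). Zfp622, which acts in late large subunit maturation, was at 8.52 to 12.4 CPM in CTR and 11.5 to 18.1 CPM in CAC (log2 fold change 0.55, edgeR adjusted p = 0.24).

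Polr1d, a subunit shared by RNA polymerases I and III, was at 54.7 to 59.4 CPM in CTR and 29.7 to 50.5 CPM in CAC, with no overlap (log2 fold change -0.40, edgeR adjusted p = 0.19). Cd3eap and Polr1a of the same list stood at -0.44 and -0.31 on the log2 scale (edgeR adjusted p = 0.39 and 0.63), and Polr1a was at -0.13 without CAC 1 and -0.49 without CAC 2. The snoRNA host Snhg3 was at 5.73 to 6.84 CPM in CTR and 2.13 to 5.41 CPM in CAC (log2 fold change -0.78, edgeR adjusted p = 0.25), with Snhg9 at 0.29 and Snhg5 at -0.51 (adjusted p = 0.39 and 0.46). In the mTORC1 list, Rraga, a GTPase that brings mTORC1 to the lysosome, had a log2 fold change of -0.31, Tsc2, an inhibitor of the pathway, one of -0.30, and Fnip1, a partner of folliculin, one of 0.32 (edgeR adjusted p = 0.35, 0.42 and 0.43). None of these differences passed the threshold.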

How the data were processed

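Libraries from the BAT of 4 CTR and 4 CAC mice were made from 50 ng of total RNA and read single-end for 75 cycles. The authors checked the reads with FastQC 0.11.9, aligned them to mm10 with Hisat2 2.2.1 and counted them with featureCounts with its multi-mapping option. The strand setting and annotation release are not given in the sources used here. The deposited table gives expected counts per gene, which include fractions of multi-mapping reads and are not normalized, and all of its library columns were used. A further deposited table of normalized values was not used.

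After rounding to whole reads, CAC was compared with CTR by the quasi-likelihood test of edgeR 4.0.16 (R 4.3.3; filterByExpr, TMM, robust fit, no covariate, Benjamini-Hochberg adjustment over all 9876 genes tested, threshold 0.05). Depth was 1823167 to 4827956 counts per library, and counting intervals cover counting error only. Shares of counts used the deposited values, and values were called whole within 0.005. Replicates of 1 group differed by more than sampling noise. The members and lists were chosen with earlier results of these data known, and the lists of translation genes and cell type markers were written from general knowledge. Genes named are the 10 members with the smallest p, the 5 with the highest and the 5 with the lowest log2 fold change, the 5 with the most counts, the paralog pairs, Rplp0, Rplp1, Rplp2, Rpsa and Rps6, and the 3 genes of each translation list with the smallest p, apart from those named after their values were seen. A few members and listed genes are not reported here. Sequences come from RefSeq (GRCm38.p6, start windows) and GENCODE M21 transcripts; protein sequences were not used here. Alternatives were DESeq2 1.42.0, other normalizations, filters and rounding, copies added to the member, the replicate number as a block, other pseudocounts, other denominators and each library left out; restriction to protein-coding members was chosen after seeing the data. Exact tests used scipy 1.17.1, and plots used matplotlib 3.10.9 (Python 3.11.15).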

Additional observations from a re-analysis of the deposited data

Results flagged for a closer look

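In each group of 4 libraries, a library was marked where its gap to the nearest other relative to the range of the group exceeded the 95% critical value of Dixon's test. Of 146 such groups, 4 were marked, and chance marks about 1 in 20. Rps20 in CAC 4 was at 904 CPM, against 308 to 330 CPM in the other CAC libraries. Rps27l in CTR 3 was at 49.0 CPM, against 63.9 to 66.6 CPM in the other CTR libraries, and the log2 ratio of Rps27l to Rps27 in the same library was -1.31, against -0.96 to -0.91. The copy Rps12-ps9 in CTR 3 was at 124 CPM of all counts, against 107 to 108 in the other CTR libraries.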

How the results depend on the processing

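Members called by an adjusted p under 0.05 stayed at 0 in either direction with DESeq2, other normalizations, at least 10 counts in every library, decimals dropped, copies added and protein-coding members only. Without a filter, which tests more genes, 1 was called higher (Rpl3l, log2 fold change 0.86) and 1 lower (Rpl7a, -0.47), 1 elongation factor (Eef1a1, -0.40) and 1 assembly factor (Nop10, -0.63) lower, where 0.923% of the 23730 genes were called higher and 0.556% lower. With each library left out, 0 to 1 members were called higher (1 without CTR 3, Rpl3l) and 0 to 1 lower (1 without CAC 4, Rps20), as were 0 to 1 assembly factors in each direction (Wdr43 higher without CTR 4, Nop10 lower without CTR 3; Wdr43 is named after its values were seen), where 0.375% to 1.02% of all genes tested were called higher and 0.0395% to 0.349% lower. Members with an unadjusted p under 0.05 numbered 4 higher with upper quartile normalization, 1 lower with DESeq2, and 4 to 8 higher and 1 to 6 lower with a library left out. The shares of all genes were 6.18%, 3.66%, 5.83% to 7.55% and 4.1% to 6.16%, in the same order. Correlations of same-numbered libraries were -0.02 to 0.04, beside -0.05 to 0.04 for the other pairs of a CTR and a CAC library. Values this small cannot decide whether the numbers pair the samples. With the replicate number as a block, 1 member was called higher (Rpl3l, 0.88, edgeR adjusted p = 0.033). At an unadjusted p under 0.05, 4 members were then higher, where 7.35% of all genes were. Of all genes, 112 were called higher and 28 lower in place of 73 and 19, which changed no other call on members. The median log2 fold change of the members lay between 0.00 and 0.05 over all alternatives.

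Small values changed sign. The log2 fold change of Rpl3 was 0.0010 with DESeq2 and 0.021 with copies added, and that of Rpl36a 0.11 with copies added. With a library left out, Rpl10 ranged from -0.0059 to 0.15, Rpl22l1 from -0.41 to 0.033, Rpl3 from -0.056 to 0.088, Rpl36a from -0.15 to 0.014, Rpl7l1 from -0.0018 to 0.17 and Rps29 from -0.058 to 0.010. The differences in log2 ratio ranged from -0.11 to 0.10 (Rpl7l1 to Rpl7), -0.14 to 0.023 (Rpl36al to Rpl36a) and -0.34 to 0.036 (Rpl22l1 to Rpl22). The cause was not tested. Rpl39l had 3 to 18 counts per library, and the part of depth was not tested.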
